A study of Mus musculus with 12 samples.

Results

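Dusp6, Spry2, Spry4, Spred1, Etv4 and Etv5 are genes that read out or restrain signalling through the kinase ERK, and their levels were measured in mouse embryoid bodies, aggregates of differentiating embryonic stem cells. These 6 genes were chosen by name as a set of ERK feedback and ETS genes, with earlier results of these data known, and all 20 of their probe sets on the array were taken, out of 45101 probe sets in all. The brightest probe set over all arrays stood for each gene, which gave 6 of the 18193 genes tested.

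The embryoid bodies came from strain 129 cells grown without LIF and were harvested at day 2.5. The groups were Smad4-null, Trim33-KD (a knock-down of Trim33) and WT cells, each treated for 2 h with activin (ac, 50 ng/ml) or with SB431542 (SB), an inhibitor of the activin and nodal receptors. The labels give SB431542 as 10 mM, which may be a slip for micromolar and could not be checked here. Smad4 is the partner shared by receptor-activated Smad proteins, while Trim33, a ubiquitin ligase of the nucleus, can bind Smad2 and Smad3. Each of the 6 groups had 2 arrays, so each line had 4, and no group was untreated. Nothing in the labels states that replicates came from separate cultures, and p-values here cover only array-to-array spread, which may be technical. How the lines were made is not given in the labels, so genotype and cell line cannot be told apart. Values are log2 signals, differences are log2 differences, and "called" means a limma p-value adjusted over all genes of under 0.05.

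FGF receptors pass their signal through RAS, RAF and MEK to ERK, and active ERK switches on genes that then act back on the cascade. Dusp6 is a phosphatase that inactivates ERK, Sprouty and Spred proteins restrain the steps between receptor and RAF, and Etv4 and Etv5 are ETS transcription factors of the PEA3 group that rise with FGF signalling. In differentiating embryonic stem cells, Fgf4 acting through ERK is known to move cells out of the naive state.

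The array medians lay between 5.85 and 6.30. Values were least spread on Smad4-null-ac replicate 1 and on WT-SB replicate 2. The Trim33 signal was 10.18 ± 0.23 in Trim33-KD arrays and 11.72 ± 0.16 in WT arrays (SD, n = 4 each), a difference of -1.54 with a limma adjusted p of 0.0101. The Smad4 signal was 12.17 ± 0.05 in Smad4-null arrays and 11.96 ± 0.07 in WT arrays (SD, n = 4 each), so it does not check the Smad4-null label. Whether the Smad4 probe set lies outside the deleted part was not tested.

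Promoter sequence was available for 4 of the 6 genes, in 5 promoters of RefSeq on the build GRCm38.p6. The 250 bases before the start of Dusp6 (chr10:99262981-99263230, plus strand) and of Spry2 (chr14:105896820-105897069, minus strand) are shown because these genes were lower in Smad4-null arrays, and those of 1 Etv5 start (chr16:22438369-22438618, minus strand) because Etv5 was not called. Each runs 5′ to 3′, and capitals mark TGAATGGG or its reverse complement.
Dusp6: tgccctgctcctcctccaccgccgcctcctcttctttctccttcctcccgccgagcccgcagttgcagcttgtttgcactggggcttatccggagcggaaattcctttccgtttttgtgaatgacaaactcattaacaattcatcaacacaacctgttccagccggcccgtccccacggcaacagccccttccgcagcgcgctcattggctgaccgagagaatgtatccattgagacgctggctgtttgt
Spry2: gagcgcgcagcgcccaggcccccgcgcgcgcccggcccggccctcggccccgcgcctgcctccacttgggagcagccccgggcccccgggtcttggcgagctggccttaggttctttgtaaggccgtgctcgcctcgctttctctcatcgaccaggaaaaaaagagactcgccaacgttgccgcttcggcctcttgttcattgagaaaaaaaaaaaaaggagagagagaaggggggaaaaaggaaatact
Etv5: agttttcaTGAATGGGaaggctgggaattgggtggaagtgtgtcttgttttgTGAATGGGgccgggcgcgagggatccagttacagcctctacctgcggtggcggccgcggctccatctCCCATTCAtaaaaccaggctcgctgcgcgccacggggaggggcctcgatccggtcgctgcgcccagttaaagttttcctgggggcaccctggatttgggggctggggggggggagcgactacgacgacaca

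A set of 5 motifs was searched on both strands from 250 bases before to 50 bases after each start. They were CCGGAA (the ETS core GGAA after CC), the Capicua octamers TGAATGAA and TGAATGGA, the AP-1 motif TGANTCA and the Foxh1 motif AATNCACA. The core GGAA alone was not searched, and each of the sequences shown above holds it. Of the 5 promoters, 1 held a match, a single CCGGAA in Spry2 at base 33 after the start. Over all 32851 promoters of the table, 14.9% held CCGGAA, 1.30% TGAATGAA, 1.21% TGAATGGA, 7.81% TGANTCA and 3.60% AATNCACA. A further octamer that differs from the Capicua octamers in its last letters, TGAATGGG, was searched after the sequences had been read. It stood 3 times in the Etv5 promoter shown above, with first bases at -242, -198 and -131 from the start, and was in none of the other 4 promoters of these genes. It was in 1.08% of all promoters. Other variants in the last letters were not searched or marked, such as tgaatgac, which the Dusp6 sequence shown above holds. Variants in the early letters were not searched or marked either. Read on the other strand, ttcattga in the Spry2 sequence and tccattga in the Dusp6 sequence each differ from a searched Capicua octamer by 1 letter. Whether the promoters of Dusp6 and Spry2 hold Capicua sites in such other forms was therefore not tested. None of the searched motifs overlapped another in these windows, and a match is a run of letters, not evidence that a factor binds there.

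In Smad4-null embryoid bodies 5 of the 6 genes were lower than in WT embryoid bodies: the ERK phosphatase Dusp6, the RAS-ERK inhibitors Spry2, Spry4 and Spred1, and the ETS factor Etv4. Their signals were 38.6% to 64.3% of WT. Etv5, the closest relative of Etv4 among these genes, was not called. The share lowered over all genes tested was 11.3%, and in the same comparison 7.12% of genes were raised. The median difference of the 6 genes was -1.03, against -0.03 over all genes, and all 6 were in the brighter 50% of genes, where 15.3% were lowered. In bulk samples, fewer cells of a type and less RNA per cell cannot be told apart.

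Dusp6, which removes the activating phosphates from ERK, had 10.90 and 11.11 in Smad4-null-ac arrays and 11.42 and 11.27 in Smad4-null-SB arrays, against 12.43 and 12.42 in WT-ac arrays and 12.16 and 12.34 in WT-SB arrays. Every Smad4-null array was below every WT array. The limma difference was -1.16 (SE 0.16, 95% interval -1.53 to -0.80, adjusted p = 0.00258), which leaves 44.6% of the WT signal. In Trim33-KD, Dusp6 had 12.37 and 11.99 with activin and 12.34 and 11.73 with SB431542, which overlapped the WT arrays.

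Spry2, a Sprouty protein that restrains receptor tyrosine kinase signalling, had 10.39 and 10.55 in Smad4-null-ac arrays and 10.46 and 10.39 in Smad4-null-SB arrays. The WT-ac arrays had 11.79 and 11.94 and the WT-SB arrays 11.86 and 11.68. Every Smad4-null array was more than 1 log2 unit below every WT array, with a limma difference of -1.37 (SE 0.17, 95% interval -1.78 to -0.96, adjusted p = 0.00210). Trim33-KD arrays had 11.61 and 11.32 with activin and 11.87 and 11.08 with SB431542, between the Smad4-null arrays and the upper WT arrays and overlapping WT.

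Spry4, also a Sprouty protein, had 9.01 and 9.35 in Smad4-null-ac arrays and 9.55 and 9.19 in Smad4-null-SB arrays, against 10.11 and 9.99 in WT-ac arrays and 10.41 and 10.17 in WT-SB arrays. The limma difference was -0.90 (SE 0.15, 95% interval -1.24 to -0.56, adjusted p = 0.00541). This call rests on the brightest of 4 Spry4 probe sets, and with the mean of all 4 the difference was -0.38 and the adjusted p 0.127. Trim33-KD arrays had 9.45 and 9.87 with activin and 10.38 and 10.24 with SB431542, the widest treatment gap of the 6 genes.

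Spred1, which binds neurofibromin and holds back RAS, had 10.24 and 10.29 in Smad4-null-ac arrays and 10.37 and 10.31 in Smad4-null-SB arrays, against 10.96 and 11.02 in WT-ac arrays and 10.99 and 10.78 in WT-SB arrays. Its difference of -0.64 was the smallest of the 5 calls (SE 0.11, 95% interval -0.90 to -0.38, limma adjusted p = 0.00735). Trim33-KD arrays had 10.91 and 10.78 with activin and 11.05 and 10.62 with SB431542, which overlapped WT.

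Etv4 had 8.02 and 8.36 in Smad4-null-ac arrays and 8.63 and 8.54 in Smad4-null-SB arrays, against 9.80 and 9.53 in WT-ac arrays and 9.83 and 9.19 in WT-SB arrays. The highest Smad4-null array stayed below the lowest WT array, and the limma difference was -1.20 (SE 0.19, 95% interval -1.65 to -0.75, adjusted p = 0.00509). With the mean of both Etv4 probe sets it was -0.78 (adjusted p = 0.00712). Trim33-KD arrays had 9.66 and 10.15 with activin and 9.90 and 10.27 with SB431542. These reached above the WT arrays but overlapped them.

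Etv5 had 12.81 and 13.14 in Smad4-null-ac arrays and 13.20 and 13.02 in Smad4-null-SB arrays, against 13.02 and 13.04 in WT-ac arrays and 12.96 and 12.90 in WT-SB arrays. The arrays overlapped, and the limma difference was 0.06 (SE 0.11, 95% interval -0.20 to 0.31, adjusted p = 0.780). The lower bound of -0.20 lies above the differences of all 5 other genes. Trim33-KD arrays had 13.22 and 12.94 with activin and 12.91 and 13.08 with SB431542, which overlapped WT. Whether Etv4 and Etv5 differ in their change was not tested as such, since the values come from different probe sets.

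**Figure D1:**
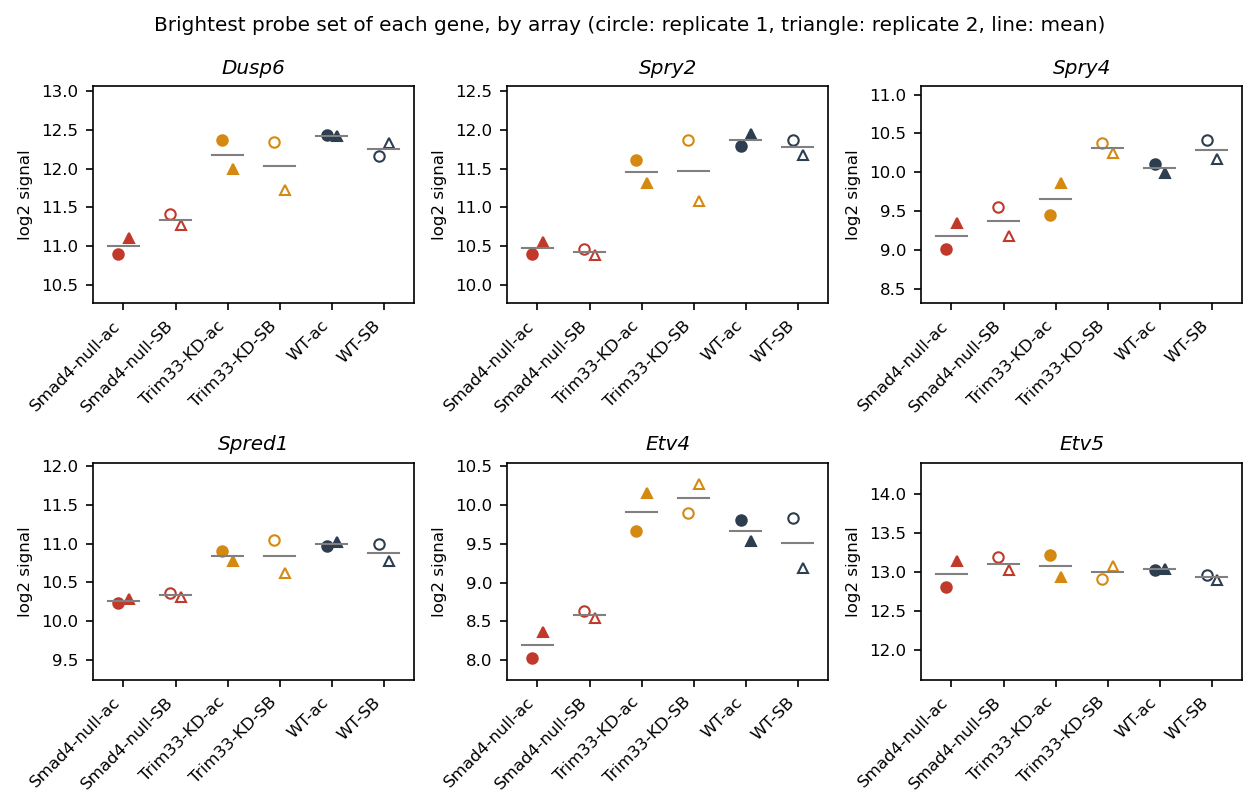
Log2 signal of the brightest probe set of each gene (y axis) in each of the 12 arrays, by group (x axis), with circles for replicate 1, triangles for replicate 2, filled symbols for activin, open symbols for SB431542 and a grey line at the mean of the 2 arrays of a group. Each panel spans the same number of log2 units, and the Smad4-null arrays lie below all WT arrays for every gene except Etv5.

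All 4 Smad4-null arrays were below all 4 WT arrays for 5 of the 6 genes, where 15% of all genes had this pattern. The difference was present with either treatment. For Dusp6 the Smad4-null mean less the WT mean was -1.42 with activin and -0.91 with SB431542, for Spry2 -1.39 and -1.35, and for Spry4 -0.87 and -0.92. It was -0.73 and -0.55 for Spred1 and -1.48 and -0.93 for Etv4. For Etv5 it was -0.06 and 0.18.

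All but 1 of the 20 probe sets had a negative difference, though several of these were not called. In a limma fit over all 45037 non-control probe sets, 10 of the 20 were lowered in Smad4-null arrays and 0 were raised, where 5.48% of all probe sets were lowered. Without the arrays of narrow spread (Smad4-null-ac replicate 1 and WT-SB replicate 2), 5 of the 20 were called. Without Smad4-null-SB replicate 2 alone or WT-ac replicate 1 alone, 6 were called. The differences were negative for 19 of the 20, the exception being the brightest Etv5 probe set. Of the 20, 3 had a mean below 64 on the linear scale, 1 of Etv4 and 2 of Spred1, and none of these 3 was called.

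Both Spry2 probe sets were lowered, and the dimmer one differed by -1.68. Of the 8 Spred1 probe sets 5 were lowered, with differences between -0.52 and -1.39. Probe set 1460116_s_at differed by -0.84 with a limma adjusted p of 0.123. For Spry4 1 of 4 was lowered, and the other 3, all dimmer, differed by -0.04 to -0.42. For Etv4 1 of 2 was lowered. The dimmer Etv5 probe sets, 1450082_s_at and 1420998_at, differed by -0.24 and -0.25 and were not called. Probe set 1420998_at had 11.79 and 11.68 in the replicate 1 arrays of WT-ac and WT-SB and 10.71 and 10.16 in their replicate 2 arrays, so WT arrays of the same treatment differed by 1.08 and 1.52 there. In the brightest Etv5 probe set these gaps were 0.02 and 0.06.

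**Figure D2:**
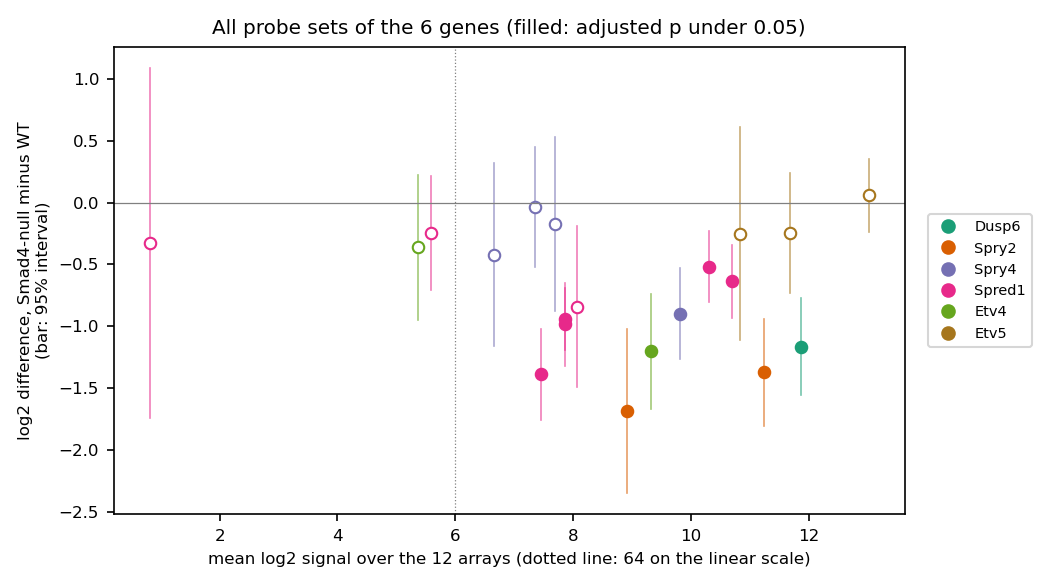
Log2 difference, Smad4-null minus WT, of each of the 20 probe sets (y axis, with 95% intervals as bars) against its mean log2 signal over the 12 arrays (x axis), coloured by gene and filled where the limma adjusted p over all probe sets was under 0.05. All but 1 point lie below 0, and the 3 probe sets left of the dotted line at 64 on the linear scale are open.

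Spry2 lies in a stretch of chromosome 14 where neighbouring genes were lower too. Among the genes in the brighter 50%, in gene order and up to 50 on either side, Spry2 had 68 neighbours, since only 18 followed it before the end of the chromosome. Their median difference between Smad4-null and WT arrays was -0.65, and 53 were lowered and 1 raised. The Spry2 difference less that median was -0.72, and 5 of the 68 neighbours were lower still. For the 5 other genes the median of 100 neighbours lay between -0.07 and 0.04. For Dusp6, Spry4, Spred1 and Etv4 the difference less this median was -1.17, -0.94, -0.67 and -1.18. The part of this neighbourhood's shift in the Spry2 result was not tested. In Trim33-KD the Spry2 neighbours had a median difference of -0.0036.

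**Figure D3:**
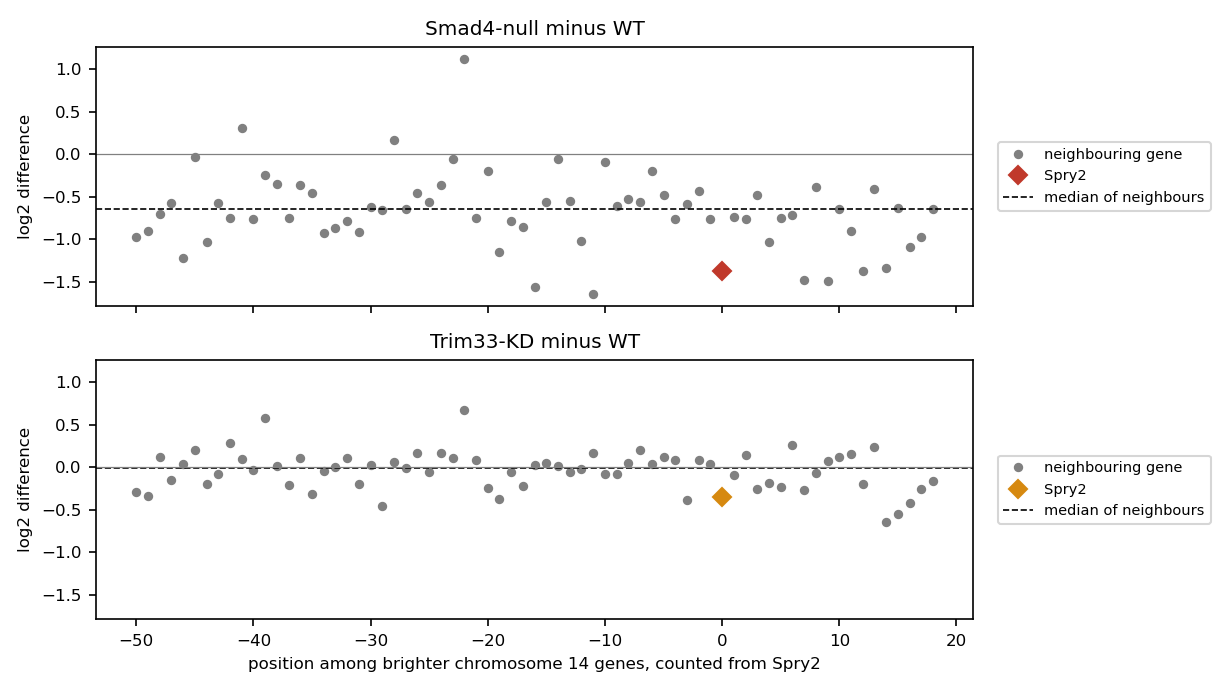
Log2 difference from WT (y axis) of Spry2 (diamond) and its 68 neighbours on chromosome 14 (grey points) by position in gene order counted from Spry2 (x axis), for Smad4-null in the upper panel and Trim33-KD in the lower panel; the dashed line is the median of the neighbours. In Smad4-null most neighbours lie below 0 around a median of -0.65, with Spry2 lower at -1.37.

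In Trim33-KD embryoid bodies none of the 6 genes was called against WT. Their differences ran from -0.35 (Spry2) to 0.41 (Etv4). The limma adjusted p-values were 0.335 or higher, where 0.649% of all genes were called. An unadjusted limma p under 0.05 was seen for 0 of 6, where 3087 of all 18193 genes had one. Trim33-KD and WT arrays overlapped for all 6, where 6.28% of genes were lower in all Trim33-KD arrays and 6.12% higher. Both line comparisons share the 4 WT arrays.

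The intervals set what these arrays can show. The Etv4 difference of 0.41 had a 95% interval of -0.04 to 0.85, and the Spry2 difference of -0.35 one of -0.76 to 0.06. For Dusp6 it was -0.23 (-0.59 to 0.14), for Spry4 -0.19 (-0.53 to 0.15), for Spred1 -0.10 (-0.36 to 0.16) and for Etv5 0.05 (-0.20 to 0.31). With each array centred on its median, where the median of all genes in this comparison was 0.16 in place of -0.04, the Spry4 difference was 0.01 and the Spred1 difference 0.10. Of the 20 probe sets 0 were called in limma, where 0.113% of all probe sets were. The share of all probe sets with an unadjusted p under 0.05 was not counted, and of the 20, 1 had such a p. That probe set, Spred1 1423162_s_at, differed by -0.40 and was lower in all Trim33-KD arrays, as was Spry2 1421656_at at -0.64.

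The Trim33-KD replicates stood further apart for Dusp6 and Spry2 than those of the other lines. For Dusp6, replicate 2 less replicate 1 was -0.37 with activin and -0.62 with SB431542. For Spry2 it was -0.29 and -0.79. In the Smad4-null and WT groups the same gaps for Dusp6 and Spry2 lay between -0.18 and 0.21. For Etv4 the gaps were 0.49 and 0.37 in Trim33-KD, and they ran from -0.63 in WT-SB to 0.34 in Smad4-null-ac in the other lines.

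Activin against SB431542 for 2 h changed none of the 6 genes past the threshold in any line. In limma, 0 of 6 were called in Smad4-null, in Trim33-KD and in WT, where 0.011%, 0.011% and 0.033% of all genes were. Over the 18 tests 9 differences were positive and 9 negative, between -0.66 and 0.17. Over all 18193 genes, an unadjusted limma p under 0.05 held for 1239 in Smad4-null, 766 in Trim33-KD and 731 in WT. Of the 18 tests 1 had such a p, which is near those shares. That was Spry4 in Trim33-KD, lower with activin by -0.66 (95% interval -1.14 to -0.18, unadjusted p = 0.0141, limma adjusted p = 0.99995). Spry4 was also -0.19 in Smad4-null and -0.24 in WT. By probe set, limma called 0 of 60 tests, where 0%, 0.00222% and 0.00444% of all probe sets were called in Smad4-null, Trim33-KD and WT. Of the 60, 2 reached an unadjusted p under 0.05, and the share of all probe sets doing so was not counted.

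Dusp6 was higher in both WT-ac arrays than in both WT-SB arrays, with a difference of 0.17 (95% interval -0.34 to 0.69), and lower in both Smad4-null-ac arrays than in both Smad4-null-SB arrays, at -0.34 (-0.86 to 0.17). In Trim33-KD it was 0.15 (-0.37 to 0.66) and the arrays overlapped. In Smad4-null the activin arrays did not overlap the SB431542 arrays for 3 of the 6 genes, Dusp6, Spred1 and Etv4, all lower, where 15.1% of all genes were all lower and 28.7% all higher. In Trim33-KD this held for Spry4 alone, all lower, as 19.6% of genes were, with 10.8% all higher. In WT it held for Dusp6 and Etv5, all higher, as 9.66% of genes were, and for Spry4, all lower, as 17% were. The test of the difference itself, the Smad4-null response less the WT response, gave -0.52 for Dusp6 (95% interval -1.25 to 0.22, limma adjusted p = 0.751) and -0.55 for Etv4 (-1.44 to 0.35, adjusted p = 0.770). For Spry4 the Trim33-KD response less the WT response was -0.42 (-1.09 to 0.26, adjusted p = 0.999997). In limma 0 of 6 genes and 0% of all genes were called in each of the 3 differences between responses. In these 3 differences an unadjusted limma p under 0.05 held for 1317, 485 and 1117 of all 18193 genes. It held for 0 of the 6, which is near those shares.

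Fgf15, an FGF ligand, did pass the test of the treatments. It was higher with activin by 2.56 in Trim33-KD (limma adjusted p = 0.00311) and by 2.24 in WT (adjusted p = 0.00449). In Smad4-null it was 0.63 (adjusted p = 0.396), and the test of the Smad4-null response less the WT response gave -1.61 (adjusted p = 0.226). It was the only gene called in any response among the 6 pathway lists described next.

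**Figure D4:**
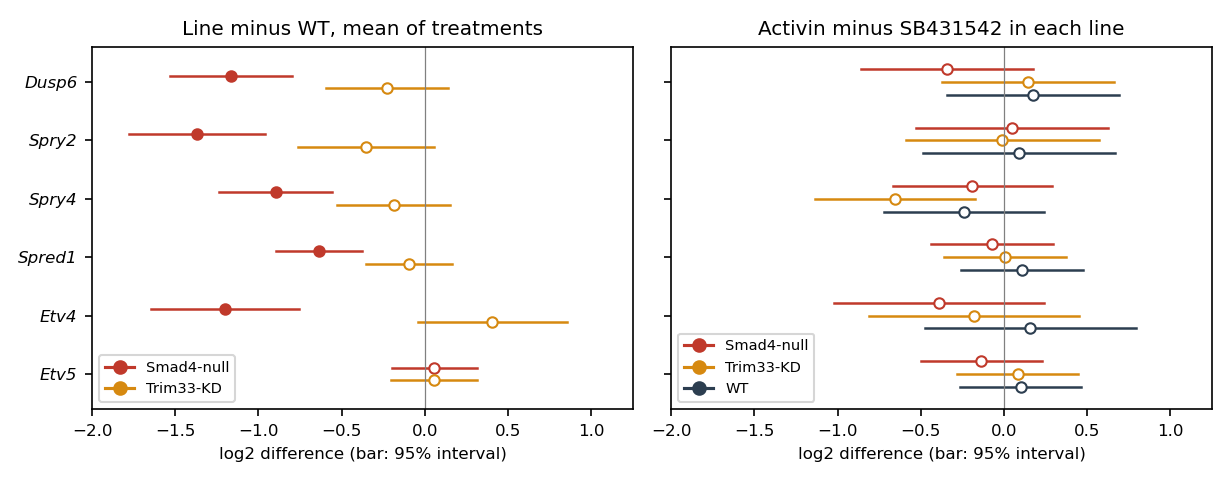
Log2 differences of the 6 genes (x axis, with 95% intervals as bars; filled where the limma adjusted p was under 0.05), on the left for Smad4-null and Trim33-KD minus WT as means over the treatments, on the right for activin minus SB431542 in each line. The filled points are the 5 genes lowered in Smad4-null, and the intervals of the responses include 0 except that of Spry4 in Trim33-KD.

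Other genes of the pathway, in 6 lists, were described by the same fit. Over all genes, 11.3% were lowered and 7.12% raised in Smad4-null, so a single call in a list of this size is near that share. Of 9 FGF ligands, 2 were raised and 5 lowered in Smad4-null, with a median difference of -0.56 against -0.03 over all genes. Fgf4, the ligand that stem cells themselves secrete, had 11.28 ± 0.21 in Smad4-null arrays and 9.72 ± 0.23 in WT arrays (SD, n = 4 each), a rise of 1.56. Fgf18 rose by 1.66, with 6.75 ± 0.21 in Smad4-null arrays and 5.09 ± 0.38 in WT arrays (SD, n = 4 each); since the WT arrays are dim, a floor of 64 on the linear scale left a rise of 0.75. Fgf8, a ligand of the primitive streak, had 7.81 ± 0.46 in Smad4-null arrays and 11.18 ± 0.80 in WT arrays (SD, n = 4 each), a difference of -3.37. Fgf5, an epiblast ligand, differed by -1.43, Fgf17 by -1.02 and Fgf3 by -0.77. Fgf3 was dim, at 4.95 ± 0.65 in Smad4-null arrays and 5.73 ± 0.28 in WT arrays (SD, n = 4 each), and these arrays overlapped; the floor of 64 left a difference of 0, and the mean of its probe sets gave -0.32. Ligands thus moved both ways. Fgf10 at -0.36 and Fgf15 at 0.20 were not called. Over the alternative settings, with each array left out among them, the list held 3 to 5 lowered ligands; the calls of Fgf17 and Fgf3 were lost in 5 and 9 of 22 alternatives.

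Of 13 listed FGF receptors, co-receptors and adaptors 12 were measured here, and 3 were raised and 4 lowered (median -0.07). The receptors Fgfr2 and Fgfr3 rose by 0.96 and 0.56, and the docking protein Gab1 by 0.54. The RAS exchange factors Sos1 and Sos2 differed by -0.88 and -0.67, and the adaptor Shc1 by -0.74. Not called were Klb at 2.39, Fgfr1 at -0.36 and Fgfr4 at 0.36. Over the alternatives 1 to 4 genes of the list were raised and 2 to 5 lowered, and the calls of Fgfr3, Sos2 and Gab1 were lost in 13 of 22, 11 of 22 and 7 of 23. With the mean of the probe sets Sos1 differed by -0.40 (limma adjusted p = 0.0931), Shc1 by -0.83 (adjusted p = 0.0515) and Fgfr3 by 0.37 (adjusted p = 0.430). Without probe sets whose names end in _x_at, _s_at or _a_at, Fgfr2 differed by 0.74 (limma adjusted p = 0.254). Klb was dim, at 4.32 ± 0.66 in Smad4-null arrays and 1.93 ± 0.69 in WT arrays (SD, n = 4 each).

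Of the core cascade, 7 of 14 listed genes were measured here, and 1 was lowered and 0 raised (median -0.05). That gene was Rps6ka3, a kinase activated by ERK, at -0.46; its call was lost without the arrays of narrow spread. Not called were Ksr1 at -0.29, Araf at -0.18 and Nras at 0.15. Differences in the kinases' RNA say nothing of their phosphorylation, which the arrays do not measure.

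Of 17 other inhibitors of ERK signalling, 1 was raised and 5 lowered (median -0.21). Spred3, a relative of Spred1, differed by -1.14, and Il17rd, a membrane inhibitor of FGF signalling also called Sef, by -1.11. The phosphatases Dusp2, Dusp4 and Dusp7 differed by -0.67, -0.64 and -0.54. Spry1, in the same family as Spry2 and Spry4, rose by 0.49, with 10.94 ± 0.16 in Smad4-null arrays and 10.46 ± 0.14 in WT arrays (SD, n = 4 each). Over the alternatives 0 to 2 were raised and 3 to 6 lowered; the Spry1 call was lost without Smad4-null-ac replicate 1, Smad4-null-SB replicate 2 or WT-ac replicate 1, the Dusp2 call in 6 alternatives, and the Dusp7 call without the arrays of narrow spread. The largest differences that were not called were Dusp1 at 0.72, Rasa2 at -0.33 and Nf1 at -0.31.

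Of 17 listed other ETS factors and repressors 16 were measured here, and 1 was raised and 5 lowered (median -0.51). Elk3 differed by -1.40, Etv2, a factor of blood and vessel precursors, by -1.09, Ets1 by -0.82, Elf2 by -0.58 and Etv3 by -0.50. Etv6, a repressor, rose by 0.64. Erg at -1.94 and Fli1 at -1.54 were not called; both were dim, with 1.75 ± 0.26 and 4.74 ± 0.77 in Smad4-null arrays and 3.69 ± 1.18 and 6.28 ± 0.24 in WT arrays (SD, n = 4 each). Elk1 at -0.62 was not called. Over the alternatives 2 to 6 were lowered and 0 to 2 raised. The calls of Etv3, Ets1, Etv6 and Elf2 were lost in 16, 15, 11 and 8 of 23 alternatives, that of Etv2 without the arrays of narrow spread, and that of Elk3 in 0 of 22. With the mean of the probe sets Etv3 differed by -0.18 and Ets1 by -0.53.

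Of 14 immediate early and delayed ERK target genes, 5 were lowered and 0 raised (median -0.49). Fosl1 differed by -1.49, Fos by -1.37, Junb by -1.26, Egr1 by -1.12 and Myc by -0.80. Fos and Junb are parts of the AP-1 factor, and Egr1 is a zinc finger factor that many growth factor signals induce. Over the alternatives 3 to 6 were lowered, the Fosl1 call was lost in 15 of 22, and the Egr1 call without the arrays of narrow spread. Fosl1 was dim, at 5.26 ± 0.70 in Smad4-null arrays and 6.74 ± 0.33 in WT arrays (SD, n = 4 each), and differed by -0.72 with the floor of 64 and by -0.92 without the arrays of narrow spread. Egr1 had 9.62 ± 0.15 in Smad4-null arrays and 10.74 ± 0.28 in WT arrays (SD, n = 4 each). Not called were Fosb at -0.68, Egr2 at -0.58 and Zfp36 at -0.39. In Trim33-KD 0 genes of any of the 6 lists were called in limma, where 0.649% of all genes were. An unadjusted limma p under 0.05 held for 4, 4, 2, 4, 3 and 6 genes of the lists in the order given. These lists had 9, 12, 7, 17, 16 and 14 measured genes, and over all genes 3087 of 18193 had such a p. In Trim33-KD, Il17rd, for example, differed by -0.80 (limma adjusted p = 0.0873) and Fgf5 by -0.97 (adjusted p = 0.0518).

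**Figure D5:**
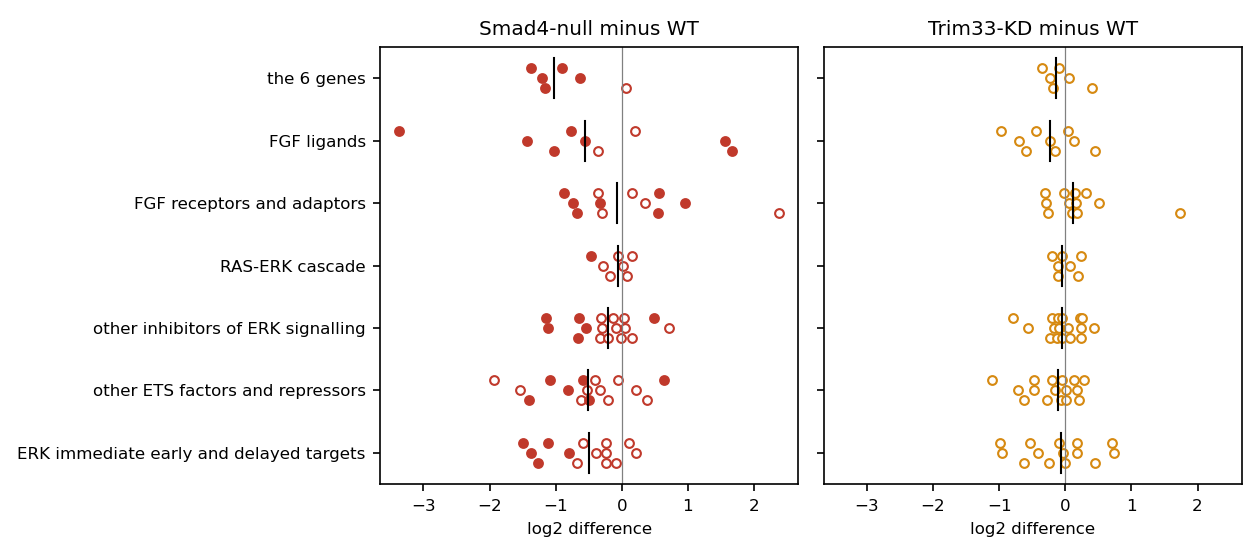
Log2 difference from WT (x axis) of every measured gene of the 6 genes and the 6 pathway lists (rows), for Smad4-null on the left and Trim33-KD on the right; filled points had a limma adjusted p under 0.05 and black bars are medians. In Smad4-null 5 of the 6 genes are filled and these 5 lie below 0, while FGF ligands and receptors have filled points on both sides; in Trim33-KD no point is filled.

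Markers of some of the cell types that embryoid bodies can hold differed between the lines. Over all genes, 11.3% were lowered and 7.12% raised in Smad4-null against WT. Of 12 listed primitive streak and nascent mesoderm markers 11 were measured here and 7 were lowered in Smad4-null. Their summed linear signal was 1426 to 2038 in Smad4-null arrays, 3564 to 7982 in Trim33-KD arrays and 5151 to 10693 in WT arrays, and the group mean was below 64 on the linear scale for 6 of the 11 in Smad4-null and for 2 in WT. Of 8 endoderm markers 5 were lowered, with sums of 746 to 935 in Smad4-null arrays and 1493 to 2950 in WT arrays. Of 11 naive pluripotency markers 8 were raised and 1 lowered, with sums of 20536 to 24107 in Smad4-null arrays and 11855 to 13444 in WT arrays, and none was below 64.

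Primed epiblast markers had 1 raised and 3 lowered of 7, with sums of 20086 to 22143 in Smad4-null arrays and 20252 to 22618 in WT arrays. Among the lowered ones, Zic2 (-1.09) is a Spry2 neighbour on chromosome 14, as is the lowered naive marker Klf5 (-0.56). Of 7 neuroectoderm markers 2 were raised and 1 lowered, and of 6 trophectoderm markers 1 was lowered. The neuroectoderm sums were 1668 to 1918 in Smad4-null arrays, 1744 to 1950 in Trim33-KD arrays and 1989 to 2294 in WT arrays. Those of trophectoderm were 3724 to 3879, 5434 to 11401 and 4252 to 5158 in the same order. Group means were below 64 for 4 of the 7 neuroectoderm markers in each line. Fibroblast feeder markers, 8 in all with 1 raised and 2 lowered, summed to 520 to 651 in Smad4-null arrays and 513 to 662 in WT arrays, with group means below 64 for 5 and for 6 of them. Against WT, Trim33-KD had 1 streak marker raised, though that list's median was -0.85, and 1 primed epiblast and 1 neuroectoderm marker lowered. No other marker was called there in limma, where 0.649% of all genes were. Trim33-KD sums were 1038 to 2349 for endoderm, 12864 to 15346 for naive, 18183 to 21592 for primed epiblast and 516 to 557 for feeder markers. The part of the streak, endoderm and naive marker differences in the lower signals of Dusp6, Spry2, Spry4, Spred1 and Etv4 was not tested.

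The genes most like each of the 6 over the 6 group means were found by the root mean square difference of centred log2 values among the brighter 50% of genes, which gives a description with no test. Dusp6 was closest to Igdcc3, at 0.055, where the median over those genes was 0.53, and then to Zmym5 and Crot. Spry2 was closest to Usf3, at 0.055, then to Fzd3 and Prtg. Spry4 was closest to Snhg11, at 0.11, then to Mgat1 and Mmd. Spred1 was closest to Foxh1, at 0.023, then to Cyp4f16 and Mrc2. Etv4 was closest to Sema3f, at 0.044, then to Plk2 and Fam102a. Etv5, whose group means span only 0.18, was closest to Jpt2, at 0.017, then to Champ1 and Selenos. Among the 6 genes themselves Dusp6 and Spry2 were the closest pair, at 0.15, and Etv4 and Etv5 the most distant, at 0.70.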

How the data were processed

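Total RNA of 12 embryoid body samples was hybridized to Affymetrix mouse expression arrays, 1 array a sample, in 6 groups of 2 (Smad4-null, Trim33-KD and WT, each with activin or SB431542). Per the labels, the authors deposited a log2 signal for every probe set; the linear values of each array have a mean of 500 after trimming. The submitters' processing notes name limma without a version; how probes were summarized is not given in these sources. Values were used unchanged with no pseudocount, and precision is limited by the number of arrays.

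Of 45101 probe sets 64 are controls, 34945 have 1 gene symbol in the platform table, 932 several and 9160 none; those with several or none were left out of gene values. Each of 18193 genes was represented by its brightest probe set (9010 genes had a choice of several). With limma 3.58.1 in R 4.3.3, a model with a mean for every group was fitted over all 12 arrays (lmFit, eBayes, 6 residual degrees of freedom), with Benjamini-Hochberg adjustment over all genes and a threshold of 0.05. The contrasts were each mutant line minus WT over both treatments, activin minus SB431542 in each line, and the differences between these responses. The fit was tested on simulated data. Python 3.11.15 with matplotlib 3.10.9 drew the figures. Gene order, promoters and gene names came from RefSeq tables of GRCm38.p6.

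The 6 genes and the lists were chosen with earlier results of these data known. The rule for named genes took all 6 genes and, of each pathway list, up to 6 called and up to 3 not called, by size of the Smad4-null difference, and the 3 genes most like each of the 6. Arrays were not paired by replicate number. Deviations of arrays with the same number correlated across groups at -0.30 to 0.39 over 15 pairs of groups. Between the treatments of the same line the correlation was 0.39 in WT, 0.34 in Trim33-KD and -0.19 in Smad4-null. A pairing within lines was not fitted, so the arrays of a line were treated as independent. Alternatives were quantile normalization, median centring, the brighter 50% of genes, probe set means and a floor of 64. Others were a replicate block, array weights, a prior that is trended and robust, and a fit of the compared groups alone. The arrays of narrow spread were left out, as was each array in turn. A further alternative left out probe sets whose names end in _x_at, _s_at or _a_at, the Spred1 probe set used here (1423161_s_at) among them. The octamer TGAATGGG was added after seeing the sequences.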

Additional observations from a re-analysis of the deposited data

How the results depend on the processing

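The 5 calls of Dusp6, Spry2, Spry4, Spred1 and Etv4 in Smad4-null against WT held in all 23 alternatives (12 with 1 array left out), except Spry4 with the mean of its probe sets (-0.38, adjusted p = 0.127), which left 4 calls; the cause was not tested, though its 3 dimmer probe sets enter that mean. In all other comparisons 0 of the 6 genes were called in every alternative. With the replicate block, which used the replicate number as a term common to all lines, 5 of the 6 were called and no call of the 6 genes changed. A common term cannot take up gaps between replicates that differ between lines. For Etv4, replicate 2 less replicate 1 was 0.49 and 0.37 in Trim33-KD but -0.27 and -0.63 in WT (activin, then SB431542). By probe set, 10 of 20 were called, 5 without the arrays of narrow spread and 6 to 10 with 1 array left out; fewer arrays leave fewer residual degrees of freedom. Over all genes, 3356 were called in Smad4-null, against 2026 without the arrays of narrow spread and 2121 to 3132 with 1 array left out. In Trim33-KD 118 were called, against 787 in the brighter 50%, 637 with the trended prior, 246 with median centring, 230 with the floor, 79 with the replicate block, 65 with array weights, 52 with probe set means, 21 without the arrays of narrow spread, 2 with only the groups compared and 10 to 103 with 1 array left out.

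Values that were not called changed sign in some settings. Quantile normalization gave Etv5 -0.023 in Smad4-null and -0.011 in Trim33-KD. Median centring gave Spry4 0.015 and Spred1 0.10 in Trim33-KD, and Spry2 -0.11 for activin minus SB431542 in Smad4-null. The mean of probe sets gave Etv5 -0.15 in Smad4-null and -0.22 in Trim33-KD, and Fgfr4 -0.21 and Araf 0.010 in Smad4-null. For activin minus SB431542 it gave Spry2 -0.037 and Spred1 0.024 in Smad4-null, Spry2 0.30, Etv4 0.052 and Spred1 -0.18 in Trim33-KD, and Etv4 -0.078 and Spred1 -0.075 in WT; the Etv4 response difference of Smad4-null less WT was 0.053. Without probe sets whose names end in _x_at, _s_at or _a_at, Spred1 was -0.054 for that contrast in Trim33-KD. Without the arrays of narrow spread, Etv5 was 0.029 for that contrast in Smad4-null, and Spry2 -0.00075 and Etv4 -0.16 in WT. With 1 array left out, Etv5 ran from -0.025 to 0.14 in Smad4-null against WT and from -0.016 to 0.12 in Trim33-KD against WT, and Spred1 from -0.20 to 0.0099 in the second of these. For activin minus SB431542, Etv5 ran from -0.30 to 0.029 and Spry2 from -0.028 to 0.13 in Smad4-null; Dusp6 from -0.16 to 0.45, Etv4 from -0.42 to 0.064, Etv5 from -0.054 to 0.22, Spred1 from -0.21 to 0.22 and Spry2 from -0.40 to 0.39 in Trim33-KD; and Spry2 from -0.00075 to 0.18 and Etv4 from -0.16 to 0.47 in WT. Dim probe sets limit what the arrays can show: 3 of the 20 lay below 64.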
